A study of Mus musculus with 4 samples.

Results

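Microglia of sham and injured mouse brain were examined as the cells chosen by their own marker genes from CD45+ cells sorted on day 3 after photothrombotic injury (PTI) or its control. A cell was selected when at least 4 of the 6 microglia markers P2ry12, Tmem119, Gpr34, Olfml3, Crybb1 and Siglech and at most 2 of the 6 border macrophage genes Lyve1, Cd163, Mrc1, Folr2, Cbr2 and Cd209f were detected. By this rule 512 cells of sham brain and 848 of injured brain were selected, 1360 of the 10659 brain cells and of the 18969 cells of the whole series. The mice were 8-week-old C57BL/6J animals, and both brain libraries were made with 10x 3′ v3 chemistry from cells sorted as CD45+. The control is labelled CT and was taken as the sham operation of the study. The number of mice pooled in a library was not given in the sources used here. With 1 library per condition no test of injury is possible. Intervals below are 95% and cover counting error only.

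Microglia are the resident macrophages of the brain parenchyma, seeded from the yolk sac in the embryo and kept up by local division. In the healthy brain they hold a surveillant state with high P2ry12, a receptor that senses ADP from damaged cells, Tmem119, a membrane protein of microglia, and Sall1, a transcription factor that maintains microglial identity. After ischemia they can lower these genes, divide and take on lipid, chemokine and interferon programs, while blood monocytes enter the lesion and become macrophages. Arg1, which hydrolyses arginine to ornithine, is commonly used as a mark of wound-associated macrophages.

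Of 4734 barcodes in sham brain and 5925 in injured brain, 3748 and 4601 were kept. A kept cell had a gene count above 1000 and below 6000, and no more than 7% of its transcripts were mitochondrial. The libraries shared 7 barcodes. The selected cells held 6555362 transcript molecules (UMIs) in sham and 15902425 in injured brain, with medians of 10180 and 15716 UMIs per cell. They made up 13.7% (12.6 to 14.8) of kept sham cells and 18.4% (17.3 to 19.6) of kept injured cells. The order of these shares depended on how many markers were asked for, as given below.

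The markers were not spread evenly over the selected cells. All 6 were detected in 392 of the 512 sham cells and in 543 of the 848 injured cells, while 46 and 172 cells had exactly 4. Just outside the threshold, 69 sham and 399 injured cells had 3 markers, at a median of 4.62 and 3.69 marker UMIs per 10000 UMIs of a cell, against 8.45 and 5.27 in the cells with 4. A further 75 sham and 105 injured cells with at least 4 markers were left out for border macrophage genes, of which 22 and 46 had exactly 3 such genes.

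Genes outside the rule were therefore used to check the name. Sall1 was detected in 84.2% of sham and 76.8% of injured cells with 6 markers, but in 10.9% and 9.30% of cells with 4 and in 1.45% and 1.75% of cells with 3. Ms4a7, a gene of border and monocyte-derived macrophages that microglia largely lack, ran the other way. It was detected in 4.59% of sham and 18.6% of injured cells with 6 markers, in 78.3% and 85.5% with 4 and in 78.3% and 91.5% with 3. The Sall1 and Ms4a7 shares are unthinned, at medians of 9992 and 10964 UMIs per cell with 6 markers. With 4 markers the medians were 14256 and 23578, and with 3 they were 13885 and 22648. The cells with 4 markers had more Sall1 than those just outside the rule but far less than those with 6, and their Ms4a7 was close to that of the cells outside. Their data go against the name microglia, so all 1360 are called the selected cells. For Sall1 the share among T cells, chosen by at least 2 of Cd3d, Cd3e, Cd3g and Trac and expected to lack it, was 0.249% in sham and 1.49% in injured brain at medians of 7178 and 6082 UMIs per cell, and for Ms4a7 it was 2.62% and 16.3%.

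**Figure D1:**
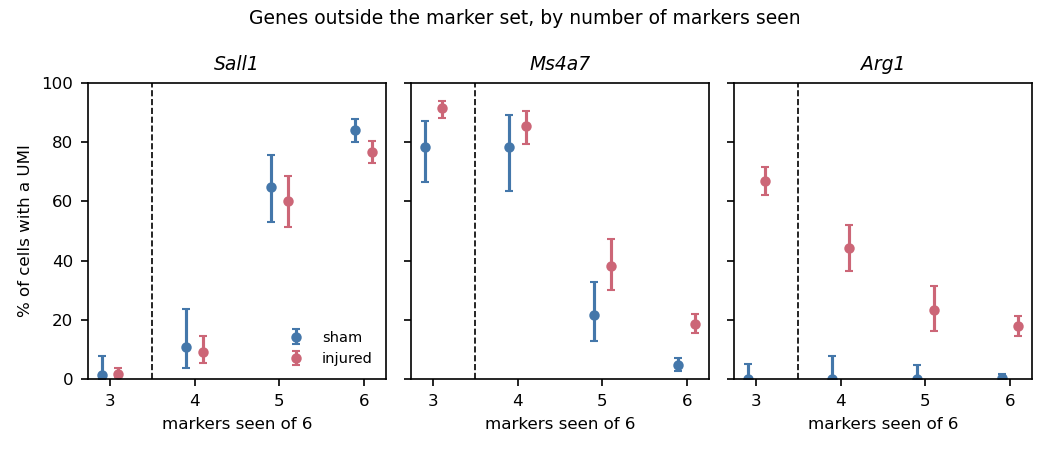
Share of cells with a UMI of Sall1, Ms4a7 and Arg1 (vertical axis, percent) by the number of the 6 markers detected (horizontal axis), in sham (blue) and injured (red) brain, with 95% exact binomial intervals. Cells left of the dashed line, with 3 markers, were not selected. Sall1 was seen in 84.2% of sham cells with 6 markers and 10.9% with 4, while Ms4a7 went from 4.59% to 78.3%.

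Every comparison was for this reason also made within ranges of the summed marker level, cut at 10 and 50 marker UMIs per 10000 UMIs after the spread was seen. These are ranges and not cell types. The level was under 10 in 42 sham and 153 injured cells, from 10 to 50 in 117 and 346, and at least 50, called marker-rich below, in 353 and 349. Near the cuts, 62 sham and 102 injured cells lay from 40 to 60, and 26 and 52 from 8 to 12. A microglial cell that had lost its markers after injury would lie in a lower range, and such a cell cannot be told apart here from a macrophage with a few marker molecules.

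**Figure D2:**
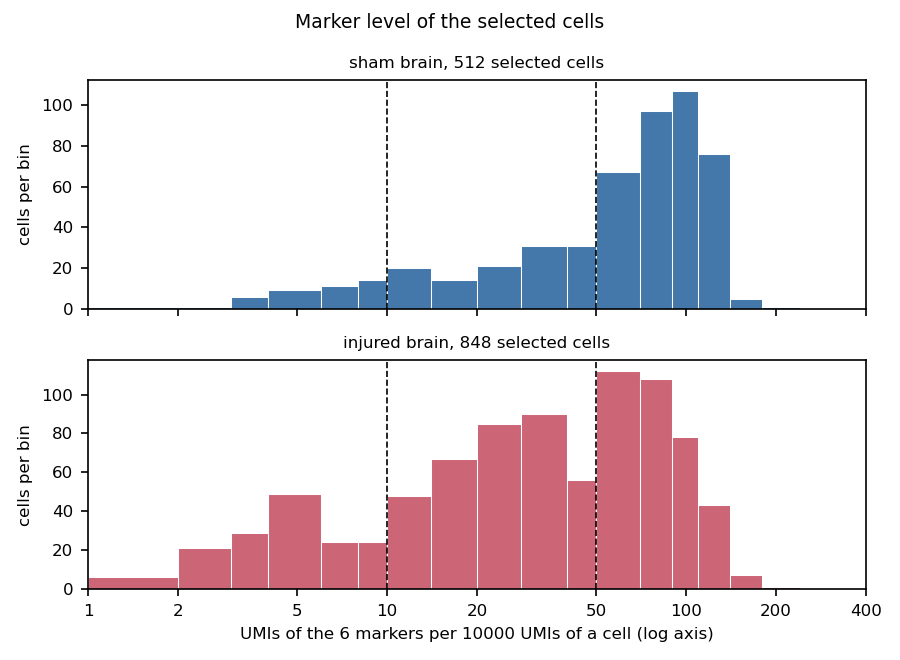
Number of selected cells per bin (vertical axis) by the summed UMIs of the 6 markers per 10000 UMIs of a cell (horizontal axis, log scale) in sham (top) and injured (bottom) brain. Dashed lines mark the cuts at 10 and 50. Of the sham cells 353 of 512 lay at or above 50, against 349 of 848 injured cells.

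Marker-rich cells carried the features of microglia most clearly. Sall1 was detected in 85.8% of marker-rich sham cells and 76.8% of marker-rich injured cells, and Ms4a7 in 2.55% and 4.58%. The 14 monocyte and infiltrating macrophage markers, among them Ly6c2, Ccr2 and Lyz2, together held 570 UMIs per 1000000 UMIs of the group (CPM) in marker-rich sham cells and 971 CPM in injured cells. In the range from 10 to 50 they held 5056 and 4804 CPM, under 10 they held 10889 and 15352 CPM, and in T cells 3448 and 5957 CPM. All 14 were detected in marker-rich cells of both libraries. The border macrophage list held 31.9 and 35.5 CPM in marker-rich cells, with 3 of its 10 genes at 0 in each library.

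The middle range was mixed. Sall1 was detected in 62.4% of sham and 68.2% of injured cells there, at medians of 19233 and 25222 UMIs per cell, and Ms4a7 in 27.4% and 41.9%. At least 3 UMIs of the 8 T cell markers were carried by 23.9% of these sham cells and 15.9% of the injured ones, against 1.42% and 2.87% of marker-rich cells. The highest Scrublet doublet scores fell on 30 sham and 45 injured cells of this range, and on 9 and 1 marker-rich cells. The part of doublets in the values of this range was not tested.

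As a share of kept cells, marker-rich cells were 9.42% (8.50 to 10.4) in sham and 7.59% (6.84 to 8.39) in injured brain, the opposite order to that of all selected cells. Cells with all 6 markers were 10.5% and 11.8%, and cells with at least 3 were 15.5% and 27.1%. A share of sorted cells also moves with every other cell type in the sort, so fewer microglia and more of the other cells cannot be told apart.

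The 6 markers chose the cells, so their levels are a description. P2ry12 was at 1464 CPM in sham and 574 CPM in injured selected cells, a log2 ratio of -1.35 (-1.39 to -1.31). Siglech, a sialic acid-binding lectin, had a log2 ratio of -1.31, Gpr34, a lysophosphatidylserine receptor, -1.03, Tmem119 -0.93, Crybb1, a crystallin, -0.75, and Olfml3, a secreted matrix protein, -0.29. In marker-rich cells P2ry12 was at 2337 and 1731 CPM (log2 ratio -0.43, -0.48 to -0.38), Siglech had -0.37 and Gpr34 -0.37, while Tmem119 had -0.09, Crybb1 0.02 and Olfml3 0.19.

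Homeostatic genes that the rule did not use were lower in injured cells. Of 28 tested (at least 100 UMIs in both libraries together), 13 were at least 2-fold lower and none higher, with a median log2 ratio of -0.91, where 4.62% of all 9571 genes tested were 2-fold lower and the median of all genes was -0.17. Centring the ratios on that median turned the 371 higher and 442 lower genes into 504 and 251. Sall1 was at 149 CPM (139 to 158) in sham and 73.8 CPM (69.7 to 78.2) in injured selected cells, a log2 ratio of -1.01. Cx3cr1, the receptor for neuronal fractalkine, was at 2275 and 1074 CPM (-1.08), and P2ry13, another ADP receptor, at 342 and 121 CPM (-1.51). Cst3, the secreted protease inhibitor cystatin C, was at 34020 and 13340 CPM (-1.35), and Slc2a5, a fructose transporter, at 188 and 72.9 CPM (-1.37). Upk1b, a tetraspanin, had the lowest log2 ratio of the list at -1.94 (-2.24 to -1.65). Fcrls, an Fc receptor-like molecule of microglia, was the only gene of the list above 0, at 0.17.

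In marker-rich cells the same list kept its side and lost its size. None of its 28 genes passed 2-fold in either direction, 25 were below 0, and the median log2 ratio was -0.33, against -0.06 over all 6706 genes tested there, of which 0.537% were 2-fold lower and 0.939% 2-fold higher. Within the lower ranges the medians were -0.45 from 10 to 50 and -0.29 under 10. From 10 to 50, of 27 genes tested, Cst3 was 2-fold lower and Fcrls 2-fold higher, where 2.81% of all genes were lower and 3.53% higher. Under 10, of 20 tested, Slco2b1, Tgfbr1, Rhob and Cst3 were 2-fold lower and Fcrls 2-fold higher, where 5.06% of all genes were lower and 6.87% higher. In marker-rich cells P2ry13 had -0.69 (-0.80 to -0.58), Cst3 -0.49, Cx3cr1 -0.44, Sall1 -0.37 (-0.53 to -0.21) and Fcrls 0.00. Holding the marker level above a cut limits how far genes that vary with the markers can differ, and the value over all selected cells includes the lower ranges with their monocyte genes. The purinergic list of 11 genes tested had a median of -0.09 over all selected cells, and of the 29 transcription factors tested Myc, Etv5 and Smad7 were 2-fold lower and none 2-fold higher.

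Genes of cell division were higher in injured cells, except in the lowest range of marker level. Of 30 tested, 17 were at least 2-fold higher and none lower, where 3.88% of all genes were 2-fold higher, and the median log2 ratio was 1.49. Mki67, a chromosome surface protein of dividing cells, had 74 UMIs (11.3 CPM) in sham and 610 UMIs (38.4 CPM) in injured selected cells (log2 ratio 1.76, 1.41 to 2.13). Birc5, the mitotic protein survivin, was at 7.47 and 46.7 CPM (2.64) and Ube2c, a ubiquitin-conjugating enzyme of mitosis, at 12.5 and 61.6 CPM (2.30). Top2a, topoisomerase II, was at 13.1 and 32.6 CPM (1.31), and Stmn1, a microtubule regulator, at 48.4 and 185 CPM (1.93). In sham cells 36.5% of the UMIs of Mki67 and 54.9% of those of Ube2c were in a single cell.

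In marker-rich cells the sham library had almost no such UMIs. Mki67 had 1 UMI in 353 sham cells and 126 UMIs in 16 of 349 injured cells (log2 ratio 7.08, 4.57 to 12.39), and Ube2c had 2 and 230 UMIs (6.95, 5.08 to 10.00). For Birc5 the counts were 7 and 155 UMIs (4.57), for Top2a 9 and 113 (3.75) and for Stmn1 82 and 580 (2.92). Of 15 genes of the list tested there 9 were 2-fold higher, with a median of 2.92. In the middle range 20 of 28 were 2-fold higher (median 1.5), where 3.53% of all genes tested were 2-fold higher and 2.81% lower. Under 10 none of 15 was higher and 4, Mcm5, Rrm1, Pcna and Stmn1, were 2-fold lower (median -0.71), where 6.87% of all genes tested were higher and 5.06% lower.

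Cells carrying at least 3 of 14 division genes were counted at an equal depth of 2000 UMIs per cell. They were 5 of 512 sham (0.977%, 0.318 to 2.26) and 46 of 848 injured selected cells (5.42%, 4.0 to 7.17), and 12 and 143 without thinning (2.34% and 16.9%). Among marker-rich cells they were 0 of 353, which allows up to 1.04% at the upper limit of the interval, and 12 of 349 (3.44%, 1.79 to 5.93), with 0 and 17 before thinning. The middle range held 3 of 117 (2.56%) and 28 of 346 (8.09%), and the lowest range 2 of 42 (4.76%) and 6 of 153 (3.92%). T cells of the 2 libraries held 2.74% and 2.48%.

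Interferon-stimulated genes were also higher. Of 25 tested, 18 were at least 2-fold higher, none lower, and the median log2 ratio was 1.54. Irf7, a transcription factor of the interferon response, was at 20.3 and 106 CPM (2.38, 2.13 to 2.65), Ifi27l2a at 236 and 643 CPM (1.45), Isg15, a ubiquitin-like modifier, at 45.3 and 197 CPM (2.12), and Ifitm3, a membrane protein that blocks virus entry, at 233 and 808 CPM (1.79). Rsad2, the antiviral enzyme viperin, had the highest log2 ratio, 3.68 (3.20 to 4.21), with 24.6% of its 1090 injured UMIs in a single cell. Cxcl10, a T cell chemokine, had 0.63.

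In marker-rich cells 6 of the 13 interferon genes tested were 2-fold higher, with a median of 0.84. Ifi27l2a was at 44.8 and 323 CPM (2.85, 2.60 to 3.11) and Irf7 at 4.69 and 29.8 CPM (2.67), while Ifitm3 was at 46.0 and 202 CPM (2.14) with 20.7% of its injured UMIs in a single cell, and Cxcl10 had 0.01. At 2000 UMIs per cell, at least 3 of the 25 genes were seen in 8.50% (5.81 to 11.9) of marker-rich sham cells and 21.2% (17.0 to 25.9) of injured ones, against 51.6% and 61.3% unthinned. T cells, in which these genes are also made, held 38.3% and 46.5% after thinning, and their level of Ifi27l2a was 505 and 643 CPM. The thinned share of cells with Ifi27l2a was 4.25% in marker-rich sham and 19.8% in marker-rich injured cells, against 35.7% and 37.6% of T cells. Since T cells make these genes they are no measure of free RNA here, and its part in the marker-rich interferon levels was not tested.

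The promoters of these genes are shown because the interferon-stimulated response element, written here as GAAANNGAAA and searched on both strands, can be read in them. Of 19 list genes matched to a RefSeq promoter (GRCm38.p6), 11 held it in the 250 bases before the gene start, where 936 of 27025 genes (3.46%) did. The capitals below mark the match nearest the gene start, and each stretch is printed 5′ to 3′ on the strand of its gene. Within the 250 bases Isg15 held 3 matches, Ifit1, Ifit3 and Ifit3b 2 each and Rsad2 1. Further matches that fall in a stretch, as in that of Isg15, are left in small letters.
Isg15, chr4:156200860-156200899, minus strand: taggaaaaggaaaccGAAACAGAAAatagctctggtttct
Rsad2, chr12:26456548-26456587, minus strand: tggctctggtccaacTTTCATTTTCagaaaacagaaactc
Ifit1, chr19:34640789-34640828, plus strand: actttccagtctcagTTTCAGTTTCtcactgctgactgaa
Ifit3, chr19:34583392-34583431, plus strand: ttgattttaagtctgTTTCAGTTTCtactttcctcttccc
Ifit3b, chr19:34607788-34607827, plus strand: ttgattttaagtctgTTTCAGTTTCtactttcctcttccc
A match is a description of the letters and not a bound site. The stretches of Ifit3 and Ifit3b are identical, and the counts of these near-identical neighbours are uncertain, since reads shared by both could have been split or lost. Isg15 had log2 ratios of 2.12 over all selected cells and 1.30 in marker-rich cells. Rsad2 had 3.68 and Ifit1 3.09 over all selected cells, Ifit3 2.28 and Ifit3b 1.9. In marker-rich cells these 4 were under the minimum of 100 UMIs, with 4 sham and 19 injured UMIs of Rsad2 (2.35), 6 and 24 of Ifit1 (2.10), 30 and 54 of Ifit3 (0.95) and 18 and 8 of Ifit3b (-1.07, -2.48 to 0.20). Cxcl10 and Trim30a, which also hold the element, had 0.01 and -0.03 there.

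Genes of the damage-associated state were higher over all selected cells, and their levels were highest in cells low in markers. Of 29 tested, 11 were at least 2-fold higher and none lower, with a median log2 ratio of 0.82. Spp1, the secreted phosphoprotein osteopontin, was at 88.3 and 2529 CPM (4.84, 4.72 to 4.96), Fabp5, a fatty acid-binding protein, at 35.4 and 708 CPM (4.32), Gpnmb, a membrane glycoprotein of lipid-laden macrophages, at 22.0 and 236 CPM (3.43), and Lgals3, galectin-3, at 165 and 1020 CPM (2.63). Apoe, the lipid carrier apolipoprotein E, was at 11648 and 20520 CPM (0.82) and Ctsb, a lysosomal protease, at 2310 and 5292 CPM (1.20).

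By range, Spp1 stood in injured cells at 3723 CPM under 10, 2856 CPM from 10 to 50 and 94.2 CPM in marker-rich cells, and in sham cells at 386, 108 and 3.22 CPM. Its log2 ratio was smaller under 10 (3.27, 3.11 to 3.43) than from 10 to 50 (4.73) or in marker-rich cells (4.87, 4.01 to 5.89). Under 10, 9 of 28 genes of the list were 2-fold higher and 3, Cadm1, Lilrb4a and Axl, 2-fold lower (median 0.6). From 10 to 50 the counts were 8 of 29 higher and Itgax lower (0.33). In marker-rich cells 4 of 22, Spp1, Fabp5, Cst7 and Lgals3, were 2-fold higher and none lower (0.44). Marker-rich cells held Spp1 with 7 of 353 sham and 169 of 349 injured cells carrying a UMI. This injured share was 48.4%, or 16.6% at 2000 UMIs. Of the 202 injured T cells 8 had 10 or more Arg1 UMIs, and with them left out, a choice made after the data were seen, Spp1 in T cells was at 217.6 instead of 952 CPM and was held by 22.2% of cells at 2000 UMIs. The marker-rich share was below that. By the same thinned shares Fabp5 (5.16% of marker-rich cells, 10.8% of these T cells) and Lgals3 (7.16% and 21.6%) were also below these T cells, and Gpnmb was not above them (2.87% and 3.09%). Cst7 was not set against T cells. Whether T cells make these genes, and the part of free RNA in the marker-rich levels, was not tested. The T cell CPM of Fabp5 and Gpnmb is no gauge, since 72.7% and 91.1% of those UMIs were in 1 cell. Apoe was at 1362 and 2539 CPM in marker-rich cells, below the 3953 CPM of the same injured T cells, but in 82.8% of cells at 2000 UMIs against 70.1% of those T cells. In the middle range Spp1 was above the injured T cells, with 40.8% of cells carrying a UMI after thinning, although 46.0% of its sham UMIs there were in 1 cell.

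Lysosomal genes passed 2-fold within the lower ranges but not over all selected cells. None of 24 tested passed 2-fold over all selected cells (median 0.39, 17 above 0), nor any of 23 in marker-rich cells (median 0.17, 16 above 0). Under 10, 8 of 22 were 2-fold higher and none lower (median 0.86), led by Ctsd at 2.13, and from 10 to 50 Gusb and Ctsd were (median 0.33). Ctsd, cathepsin D, was at 6992 and 11561 CPM (0.73), and in marker-rich cells at 8607 and 11280 CPM (0.39, 0.37 to 0.41), where injured T cells had 1388 CPM. Ctsb in marker-rich cells was at 2011 and 2736 CPM (0.44). Of 16 lipid-handling genes tested, 6 were 2-fold higher and Mgll, monoacylglycerol lipase, was 2-fold lower. Plin2, the coat protein of lipid droplets, was at 79.8 and 717 CPM (3.17) and in marker-rich cells at 38.9 and 102 CPM (1.39), in 15.5% of injured cells at 2000 UMIs, as in 15.5% of injured T cells with fewer than 10 Arg1 UMIs. Of 15 cholesterol synthesis genes 2 were 2-fold lower, Idi1 and Insig1, and none higher.

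**Figure D3:**
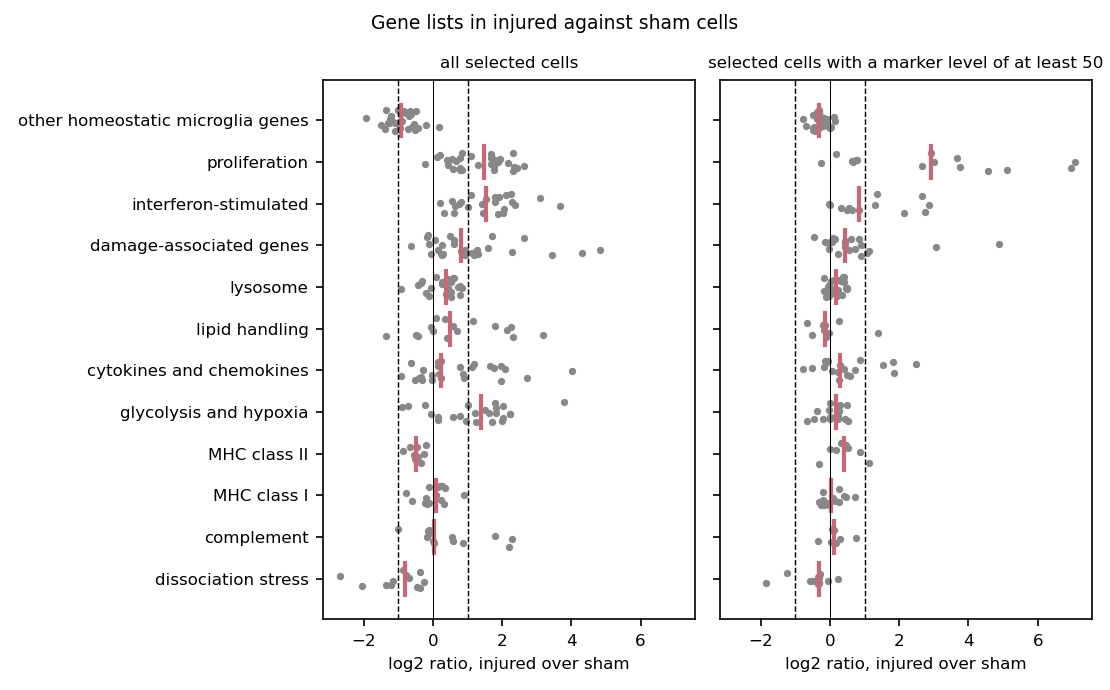
Log2 ratio of injured over sham (horizontal axis) for the tested genes (grey points) of 12 lists (vertical axis), over all selected cells (left) and marker-rich cells (right). Red bars mark list medians, dashed lines 2-fold, and a gene without UMIs in a library is drawn at its bound. Proliferation had medians of 1.49 and 2.92, glycolysis and hypoxia 1.38 and 0.18.

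Some chemokines were higher in injured cells. Of 26 cytokines and chemokines tested, 9 were at least 2-fold higher and none lower, with a median of 0.23. Ccl2, which draws CCR2+ monocytes, was at 86.8 and 367 CPM (2.08, 1.96 to 2.21) over all selected cells and at 70.3 and 393 CPM (2.48, 2.28 to 2.69) in marker-rich cells, in 67 of 353 sham and 113 of 349 injured cells. Injured T cells had 73.2 CPM of Ccl2 and injured B cells 145 CPM, both below the marker-rich level. Il1b, interleukin 1 beta, was at 751 and 1374 CPM (0.87) and in marker-rich cells at 132 and 381 CPM (1.53), and Cxcl2, a neutrophil chemokine, at 462 and 1017 CPM (1.14) and 64.7 and 231 CPM (1.84). In injured T cells with fewer than 10 Arg1 UMIs Il1b was at 713 CPM and Cxcl2 at 232.9 CPM. The thinned shares of marker-rich cells, 16.9% for Il1b and 11.7% for Cxcl2, were not above the 18.6% and 11.9% of these T cells. The part of free RNA in these marker-rich levels was not tested. Cxcl1 was at 2.75 and 45.0 CPM (4.03) over all selected cells, but had 9 and 20 UMIs in marker-rich cells.

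Ccl3 and Ccl4, chemokines that microglia make in quantity, stayed within 2-fold over all selected cells and in marker-rich cells, but not under 10. Ccl3 was at 2654 and 2167 CPM (-0.29) and Ccl4 at 5284 and 3715 CPM (-0.51), and in marker-rich cells Ccl3 had 0.27 and Ccl4 -0.08. Under 10 Ccl3 had -1.53 (-1.60 to -1.45) and Ccl4 -1.48, and of 23 genes of the list Ccl5, Tnf and Ccl12 were 2-fold lower there too, and Cxcl1 and Ccl7 higher. Ptgs2, cyclooxygenase 2, was at 61.5 and 142 CPM (1.20). In marker-rich cells it had 36 and 118 UMIs, with 41.7% and 23.7% of them in single cells, and its thinned share of 2.01% was below the 4.12% of injured T cells with fewer than 10 Arg1 UMIs.

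Glycolysis and hypoxia genes were higher over all selected cells and not in marker-rich cells. Of 24 tested, 14 were at least 2-fold higher, none lower, with a median of 1.38, while in marker-rich cells 0 of 18 passed 2-fold and the median was 0.18. Pgk1, phosphoglycerate kinase, was at 83.6 and 395 CPM (2.24, 2.12 to 2.37) overall and at 70.6 and 82.6 CPM (0.23, -0.03 to 0.49) in marker-rich cells. Ldha, lactate dehydrogenase A, had 1.80 and 0.51, Gapdh 1.62 and 0.44, and Pgam1, phosphoglycerate mutase, 2.01 and 0.23. In the middle range Pgk1 had 2.20 (2.0 to 2.4).

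Several secreted growth factors were also higher over all selected cells. Vegfa, the main vascular growth factor, was at 8.85 and 64.3 CPM (2.86, 2.48 to 3.27) in 20 of 512 sham and 227 of 848 injured selected cells. Marker-rich cells had 5 and 18 UMIs, and a thinned share of 1.15%, below the 3.09% of injured T cells with fewer than 10 Arg1 UMIs, so no marker-rich level is read from it. Fn1, fibronectin, was at 18.9 and 244 CPM (3.69), Lgals1, galectin-1, at 120 and 517 CPM (2.11), and Thbs1, the angiogenesis inhibitor thrombospondin-1, at 99.9 and 377 CPM (1.91). Thbs1 turned direction in marker-rich cells, at 37.2 and 26.1 CPM (-0.51, -0.93 to -0.10). Of 18 genes of the list tested 6 were 2-fold higher and 3, Hbegf, Pdgfb and Igfbp4, 2-fold lower.

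**Figure D4:**
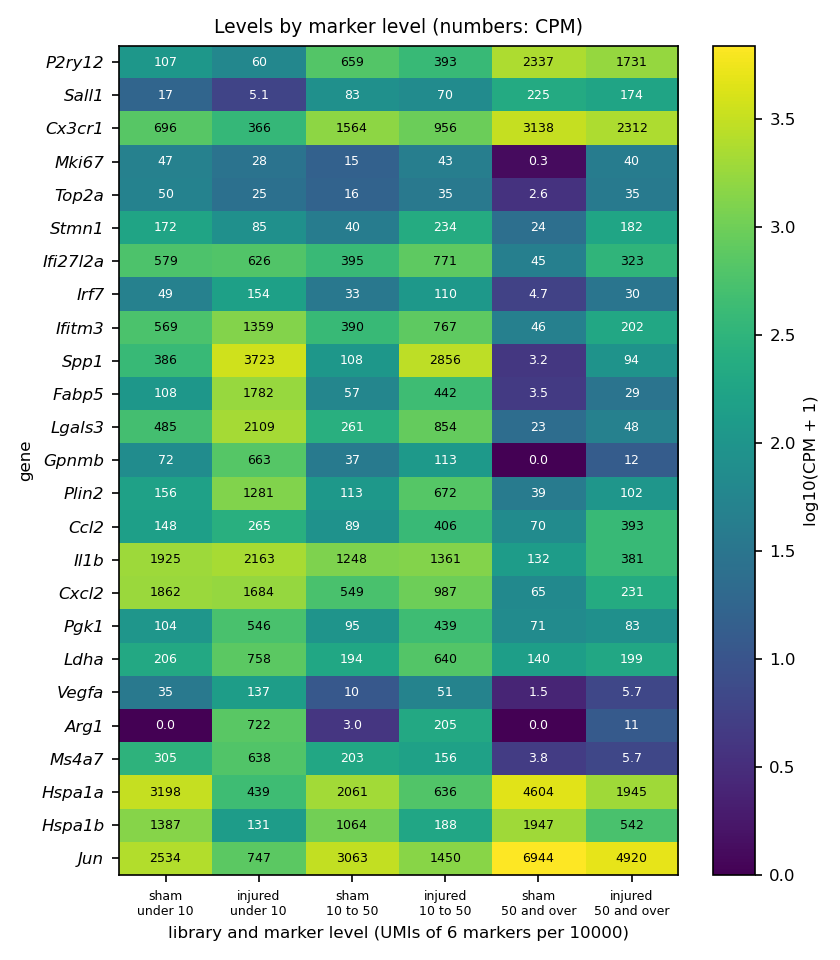
Level of 25 genes (rows) in sham and injured selected cells of the 3 ranges of marker level (columns), with CPM printed in each field and log10(CPM + 1) as colour. Spp1 in injured cells went from 3723 CPM under 10 to 94.2 CPM in marker-rich cells, whereas Ccl2 was at 393 CPM in marker-rich injured cells.

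Most antigen presentation and complement genes stayed within 2-fold over all selected cells. None of 10 MHC class II genes passed 2-fold over all selected cells (median -0.49, all below 0), and Cd74, the invariant chain, was at 3632 and 2563 CPM (-0.50). Within the lower ranges they were lower, 6 of 10 by 2-fold from 10 to 50 (median -1.18, where 2.81% of all genes were) and 6 of 7 under 10 (median -1.36, where 5.06% were), H2-Aa, H2-Ab1, H2-Eb1, Cd74 and Ciita in both. In marker-rich cells 7 of 8 were above 0 (median 0.39) and H2-Eb1 was at 72.6 and 160 CPM (1.14), with 41.1% and 30.8% of its UMIs in single cells and 1198 CPM in injured T cells. None of 15 MHC class I genes passed 2-fold over all selected cells (median 0.10), whereas under 10 H2-Q4, H2-Q7 and Tap2 were 2-fold lower and Calr higher. C1qa, a subunit of the complement initiator C1q, was at 7167 and 6654 CPM (-0.11) and C1qb at 7257 and 7259 CPM (0.00), and in marker-rich cells they had 0.10 and 0.17. Of 13 complement genes tested Cfp, Cd93 and C4b were 2-fold higher.

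A few genes of these lists were higher also in marker-rich cells. C4b, a complement component, had 35 and 291 UMIs (1.78, 1.27 to 2.33) overall and 7 and 42 UMIs (2.69, 1.52 to 4.09) in marker-rich cells, in 3 and 31 cells, where injured T cells had 2 UMIs. Fcgr4, an activating Fc receptor, was at 29.3 and 105.5 CPM (1.85) and 13.8 and 41.5 CPM (1.59). In injured T cells with fewer than 10 Arg1 UMIs Fcgr4 was at 57.6 CPM, though in 2.58% of cells at 2000 UMIs against 5.73% of marker-rich cells. Of 22 phagocytic receptors and checkpoints tested 3 were 2-fold higher and none lower, and of 23 iron and antioxidant genes 8 were higher and Cp, ceruloplasmin, lower.

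Heat shock and immediate early genes were lower in injured selected cells. All 12 genes of the dissociation list were below 0 (median -0.82) and 5 were at least 2-fold lower. Hspa1b, an inducible chaperone of the HSP70 family, was at 1565 and 244 CPM (-2.68, -2.74 to -2.63) and at 1947 and 542 CPM (-1.85) in marker-rich cells. Its near-identical neighbour Hspa1a was at 3529 and 846 CPM (-2.06) and 4604 and 1945 CPM (-1.24), and reads between this pair can be divided wrongly. Hspb1, a small heat shock protein, had -2.23 and -1.45, Hsph1, a co-chaperone, -2.07 and -1.87, and Jun -1.36 and -0.50, while Fos had -0.37 and -0.07. These genes respond to handling of the tissue, and T cells of the same libraries had less of Hspa1a as well, at 1461 and 820 CPM. The part of cell preparation in these values was not tested.

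The heat shock element GAANNTTC was found in the 250 bases before 3 of the 4 heat shock genes searched (Hspa1a, Hspa1b and Hspb1, not Hsph1) and of 2088 of 27025 genes (7.73%) in RefSeq GRCm38.p6. The stretches are shown because those of the chaperone pair are the same.
Hspa1b, chr17:34959320-34959357, minus strand: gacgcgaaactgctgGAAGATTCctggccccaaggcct
Hspa1a, chr17:34972238-34972275, minus strand: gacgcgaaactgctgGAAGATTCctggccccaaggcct
Hspb1, chr5:135887807-135887844, plus strand: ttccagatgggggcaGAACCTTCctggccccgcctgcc
Capitals mark the match nearest the gene start, on either strand. Hspb1 held 2 matches in the 250 bases, Hspa1a and Hspa1b 1 each. Across its 38 printed bases the Hspa1b stretch equals that of Hspa1a letter for letter. The rest of the 250 bases was not compared. These bases lie before the gene start, so they do not bear on how reads were divided between the pair.

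Arg1 was the gene with the highest ratio and was held by a minority of cells. In sham selected cells 7 UMIs were found in 2 of 512 cells (1.07 CPM), 6 of them in 1 cell. In injured selected cells 4784 UMIs were found in 204 of 848 cells (301 CPM, log2 ratio 8.14, 7.09 to 9.45). Of those 204 cells 88 had 1 UMI and 41 had 2 to 9, and the 75 cells with 10 or more held most of the UMIs, 4547 of 4784. Of these 75 cells 52 had a marker level under 10, 23 had 10 to 50 and none was marker-rich.

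**Figure D5:**
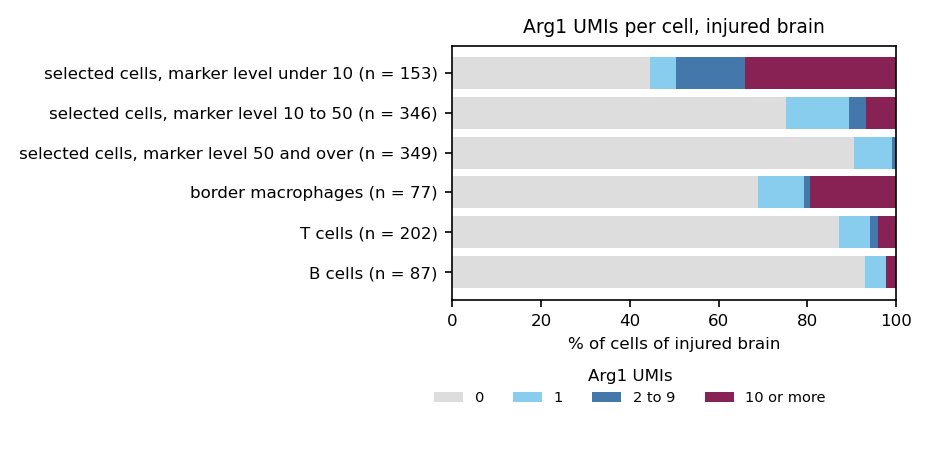
Share of injured-brain cells (horizontal axis, percent) with 0, 1, 2 to 9 and 10 or more Arg1 UMIs, for selected cells by marker level, border macrophages, T cells and B cells (vertical axis, n in brackets). Cells with 10 or more were 34.0% of selected cells with a marker level under 10, 6.65% from 10 to 50 and 0 of 349 marker-rich cells.

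Marker-rich injured cells had 36 Arg1 UMIs in 33 of 349 cells, at most 2 in a cell. Their 11.3 CPM compare with 16.0 CPM in the 194 injured T cells that had fewer than 10 Arg1 UMIs, and their share with a UMI, 9.46% or 2.58% at 2000 UMIs per cell, with 9.28% or 1.55% of those T cells. The intervals of the thinned shares overlapped (1.19 to 4.84 and 0.32 to 4.45), so at this depth Arg1 of marker-rich cells was not told apart from background. Among 353 marker-rich sham cells no UMI was found, which allows a share of up to 1.04% at the upper limit of the interval.

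Injured cells with Arg1 were then compared with the 644 injured cells without it, so Arg1 itself is no result. Cells with Arg1 were deeper, at a median of 27810 against 11110 UMIs, and 15.7% against 3.88% of them had high doublet scores. Of 8687 genes tested 2.13% were 2-fold higher and 2.26% 2-fold lower in cells with Arg1 (median -0.05). All 28 homeostatic genes were below 0, 9 of them 2-fold lower (median -0.95), among them Slc2a5 (-1.25), P2ry13 (-1.10) and Cst3 (-1.09). Sall1 was detected in 45.6% of cells with and 65.2% without Arg1.

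Macrophage genes ran opposite to the homeostatic genes. Of 13 monocyte and infiltrating macrophage markers 5 were 2-fold higher (median 0.91), with Lyz2, lysozyme, at 1.10 and Ms4a7 at 1.28, and 4 of 5 border macrophage markers, with Pf4, platelet factor 4, at 2.5. Of 29 damage-associated genes 7 were 2-fold higher, with Gpnmb at 2.43 and Spp1 at 1.16, and of 24 glycolysis and hypoxia genes 4. All 29 proliferation genes were below 0 and 8 were 2-fold lower, with Birc5 at -1.05. Cells with at least 3 of the 14 division genes were 20.1% of the deeper cells with Arg1 and 15.8% of those without. With each cell thinned to 2000 UMIs they were 3.43% (1.39 to 6.94) and 6.06% (4.34 to 8.19). These intervals overlapped, so the share of dividing cells was not told apart between cells with and without Arg1. Arg2, the mitochondrial arginase, had 1.31 (0.95 to 1.67), whereas Odc1, which turns ornithine into putrescine, had 0.32.

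Beyond the lists, F7, coagulation factor VII, had a log2 ratio of 3.67 (3.05 to 4.36), Emp1, a membrane protein, 2.55, and Ecm1, extracellular matrix protein 1, 2.52. Elane, neutrophil elastase, was among the lowest at -4.85, with 95.3% of its injured UMIs in a single cell. The 25 interferon genes were all above 0 and 9 were 2-fold higher, but Ifit1 at 1.57, Ifit3 at 1.41 and Rsad2 at 2.42 turned to -0.72, -0.66 and -0.81 when cells were split at 2 Arg1 UMIs.

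Within marker-rich injured cells the homeostatic and damage-associated lists hardly differed by Arg1, while some other lists did. Arg1 of marker-rich cells was not told apart from background, as given above. The split therefore cannot show whether marker-rich cells that make Arg1 differ from the rest. Among 33 cells with and 316 without Arg1, the median of 28 homeostatic genes was -0.07 and that of 16 damage-associated genes -0.10, with none of the latter past 2-fold, against 0.345% of 4343 genes 2-fold higher and 2.62% lower. P2ry12 had -0.10 (-0.23 to 0.03), Spp1 -0.08 (-0.69 to 0.47), Lyz2 -0.19 and Lgals3 -0.17, while Apoe had -0.72 and Vim, vimentin, -1.14 (-2.37 to -0.12). Of 13 proliferation genes 4 were 2-fold lower and Mcm3 higher (median -0.39, against -0.59 over all injured selected cells). Of 7 MHC class II genes H2-Aa, H2-Ab1, H2-Eb1 and Cd74 were 2-fold lower (median -1.55, against 0.03), on 9 to 33 UMIs in the cells with Arg1. A large part of the H2-Eb1 UMIs of marker-rich injured cells was in a single cell, as given above.

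Left to the 644 injured and 510 sham cells without Arg1, the injured-over-sham contrast kept the direction of each of these list medians. Of 9045 genes 2.41% were 2-fold higher and 2.35% lower. Homeostatic genes had a median of -0.71 (6 of 28 2-fold lower), proliferation 1.85 (17 of 29 higher), interferon 1.23 (14 of 24 higher), damage-associated genes 0.60 (9 of 29 higher) and glycolysis and hypoxia 0.93 (11 of 24 higher). Spp1 was at 89.0 and 1777 CPM (4.32), Ccl2 had 2.20, P2ry12 -1.05 and Hspa1b -2.46. Pf4 had 1.45 with and 0.06 without the Arg1 cells, and Thbs1 1.91 and 0.71.

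Of the genes with the highest ratios over all selected cells, Saa3 and Gdf3 had few UMIs in marker-rich cells. Spp1 and Fabp5, also among the 12 highest, were 2-fold higher there, with their comparison with T cells given above. Saa3, an acute-phase protein, had 3 UMIs in sham and 947 in injured selected cells (7.02, 5.47 to 9.30), but 3 and 7 in marker-rich cells. Gdf3, a growth factor of the TGF-beta family, had 0 and 234 UMIs, at least 32.2-fold higher with sham set at 3 UMIs, of which 1 UMI was in a marker-rich cell. Cd5l, a scavenger receptor ligand of macrophages, had 4 and 528 UMIs (5.77), Ecm1 12 and 1460 (5.65), and Angptl4, a lipase inhibitor induced by hypoxia, 2 and 225 (5.54). Elane had 2 and 338 UMIs (6.12), of which 95.3% were in 1 injured cell.

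Among the lowest genes Gm13889, a predicted gene, was at 166 and 15.7 CPM (-3.41, -3.61 to -3.21), and in marker-rich cells at 224 and 58.1 CPM (-1.95). T cells had 8 and 1 UMIs of Gm13889, so its level there was near 0. With Hspa1b, Hspa1a, Hspb1 and Hsph1 Gm13889 was among the 12 lowest genes.

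Border macrophages, chosen by at least 3 of the 6 border genes and at most 1 marker, and Arg1 cells with at most 1 marker and 2 border genes were set beside the selected cells. Arg1 had 0 UMIs in 41 border macrophages of sham brain and 1250 UMIs in 24 of 77 of injured brain, where 15 cells had 10 or more. The other Arg1 cells were 63 in sham and 612 in injured brain. Of the injured ones 309 had at least 10 UMIs, whereas the highest count in a sham cell was 8. Sall1 was detected in 0.980% of those 612 cells, Ms4a7 in 70.1% and Lyz2 in 96.6%. Spp1 was at 5650 CPM there and at 2519 CPM in injured border macrophages, where Gpnmb had a log2 ratio of 7.68 (5.82 to 10.73) on 2 sham UMIs and Hspa1b -1.54 against sham. Of the 12 genes of the dissociation list Hspa1b was the only one 2-fold lower in border macrophages (median -0.01, 5 above 0).

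Neutrophil RNA moved with the libraries as well. The 10 neutrophil markers, among them S100a8 and S100a9, held 3000 CPM in marker-rich sham and 1416 CPM in marker-rich injured cells, all 10 being detected in both, and 5051 and 6875 CPM in T cells. S100a8 was at 1050 and 506 CPM in marker-rich cells (-1.05), with 28.1% and 48.0% of its UMIs in 1 cell. The part of this RNA in the values above was not tested.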

How the data were processed

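CD45+ cells of sham and PTI brain were profiled by 10x 3′ v3 single-cell RNA-seq, 1 library per condition. Per the labels, the authors used Cell Ranger 3.1.0, Seurat 3.1.0 and the mouse genome mm10, and they deposited natural log values, ln(1 + UMIs of a gene per 10000 UMIs of the cell). Counts had been planned for, so UMIs were recovered from these values: 100% came out whole within 0.01. Libraries held 49003977 (sham) and 115154317 (injured) UMIs.

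UMIs were summed over the selected cells and given as CPM with exact Poisson intervals, log2 ratios with the exact conditional interval and shares with Clopper-Pearson intervals. A gene was tested when its 2 groups summed to 100 UMIs or more, a log2 ratio of at least 1 either way was counted as 2-fold, and 0 UMIs were set at 3 for bounds. Shares were repeated with each cell thinned to 2000 UMIs. The authors' methods name Scrublet, but the deposited matrices still hold cells failing the other stated filters. Automatic Scrublet calls marked 3 sham and 2 injured barcodes (0.0634% and 0.0338%), so doublets were kept and removal by rank was an alternative. The steps were tested on simulated data, with Python 3.11.15, NumPy 2.4.6, SciPy 1.17.1, pandas 2.3.3, Scanpy 1.11.5 and matplotlib 3.10.9.

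The members and the 32 gene lists were chosen with earlier results of these data known. Named genes were Arg1, the 12 rule genes, the 4 genes with most UMIs and those past 4-fold of each list, the 12 highest and 12 lowest ratios among genes with at least 200 UMIs, and the 8 highest and 6 lowest for the Arg1 split, of which those that matter are printed. Mki67, Top2a, Cst7, Cxcl2, Ptgs2, C4b, Fcgr4, Arg2, Mgll, Cp and the genes named as passing 2-fold were list genes named after their values were seen.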

Additional observations from a re-analysis of the deposited data

How the results depend on the processing

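Of the alternatives to the 371 genes 2-fold higher and 442 lower over all selected cells, thinning cells before selection gave 21 and 14, thinning the members 115 and 41, leaving out members with T cell, B cell or neutrophil RNA 86 and 34, a minimum of 10 UMIs 795 and 1275, one of 500 UMIs 188 and 150, and marker-rich cells 63 and 36. The lower count alone changed by over 1.5 times with at least 3 markers (821), at least 5 (257), all 6 (185), no border gene (261), the mean over cells (163), no cell filter (739), centring (251) and T cell levels subtracted (1397). The cells left out for other RNA had 3 or more UMIs of a T cell, B cell or neutrophil list. After that step 80 of 512 sham and 160 of 848 injured selected cells remained. Fewer UMIs or cells enter the thinned and restricted counts, and for the rest the cause was not tested.

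Without Arg1 cells, 218 higher and 213 lower became 19 and 13, 52 and 21, 60 and 28, 620 and 900, 84 and 55, and 54 and 35 under the first 6 of these. No cell filter gave 351 and 440, and the lower count was 135 without border genes, 91 by the mean over cells, 115 centred, 1155 with T cell levels subtracted and 134 with 6 markers. For the Arg1 split, 185 and 196 became 76 and 79 thinned, 120 and 43 with 6 markers and 15 and 114 in marker-rich cells, and the lower count was 578 at 2 Arg1 UMIs and 71 with at least 5 markers. Shares of kept sham and injured cells, 13.7% and 18.4%, were 15.5% and 27.1% with 3 markers, 12.4% and 14.7% with 5, 10.5% and 11.8% with 6, 10.8% and 10.4% thinned, 12.4% and 20.3% unfiltered and 9.42% and 7.59% marker-rich.

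Directions turned for Elane without cell filter (-0.47), Gpnmb with T cell levels subtracted (-0.20) and Thbs1 in marker-rich cells (-0.51). Without Arg1 cells they turned with T cell levels subtracted for the B cell markers (median 0.13), Cxcl2 (-0.13) and Fcgr4 (-0.79). In the Arg1 split they turned at 2 Arg1 UMIs for Rsad2 (-0.81), Ifit1 (-0.72) and Ifit3 (-0.66), with 6 markers for Ube2c (0.06), and in marker-rich cells for Crybb1 (0.21), Slc2a5 (0.15), Isg15 (-0.85), Spp1 (-0.08), Lgals3 (-0.17), Apoe (-0.72), Plin2 (-0.21), Gm13889 (0.10), Lyz2 (-0.19) and Vim (-1.14). The subtracted levels were those of all T cells, with the 8 injured ones that had 10 or more Arg1 UMIs. For Gpnmb the T cell CPM is no gauge, as given above, so nothing is read from its turn. Subtracting T cell levels leaves no ratio for 5205 of 9571 genes (54.4%). No paired analysis was possible because each condition has 1 library, and for the same reason no replicate could be left out.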
